A study of Mus musculus with 6 samples.

Results

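The proteasome genes described here are the 47 genes of a table of 19571 whose symbols begin with Psm, a letter from a to g and a number, pseudogene names left out. RNA came from E14 cells, a mouse embryonic stem cell line, grown on gelatin in serum with LIF, the cytokine that keeps such cells undifferentiated. The comparison sets 3 samples with Dot1l disrupted by CRISPR/Cas9 (Dot1L-/-, called Dot1l KO) against 3 wild-type (WT) samples, and asks how the transcriptome differs without this histone H3 methyltransferase. All 6 samples carry the age label day 14, whose starting point the labels do not explain, and the labels do not say whether the Dot1l KO samples come from 1 clone or several. The deposited table holds the authors' DESeq2 comparison of the genotypes, with no value per sample. For each gene it lists the mean normalized count over the 6 libraries, the log2 fold change, the standard error (SE) of that change, and a p-value adjusted over all genes by the Benjamini-Hochberg method. Sequencing depth per library is unknown. Since nothing says that replicates were separate cultures, the p-values measure only the spread between these samples, which may be technical. In bulk RNA, fewer cells of a type and less RNA per cell cannot be told apart.

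The table does not name the genotype that a positive fold change favours. A positive value is taken here to mean a higher level in Dot1l KO, since earlier publications report that Dot1l holds the retrovirus MERVL down in stem cells; were the sign reversed, each direction below would turn. The targeted gene Dot1l, on chromosome 10 from 80755206 to 80795461 (mm10), missed the threshold and does not settle the sign, at -0.16 ± 0.25 (SE) on the log2 scale with adjusted p = 0.845 per the authors' deposited table. The stem cell label was checked on 10 marker genes such as Pou5f1, Sox2 and Nanog, whose means ran from 5956 to 50682 normalized counts. None of these 10 markers passed the test at an adjusted p under 0.05, where 5.34% of all genes tested were higher and 1.25% lower. At an unadjusted p under 0.05, 1 was higher and 0 lower, against 10.6% and 5.55% of all genes.

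The proteasome is the protease that degrades proteins tagged with ubiquitin. Its core particle is a barrel of alpha and beta rings, in which the beta subunits Psmb5, Psmb6 and Psmb7 carry the catalytic sites; interferon can replace them with Psmb8, Psmb9 and Psmb10, which makes the immunoproteasome and favours peptides that fit MHC class I molecules. A regulatory particle of ATPases (Psmc genes) and non-ATPase subunits (Psmd genes) recognises, unfolds and feeds in the substrate, other caps (Psme genes) open the barrel without ATP, and dedicated chaperones assemble the parts. When proteasomes are inhibited, the transcription factor Nfe2l1 raises the genes of the subunits together through antioxidant response elements in their promoters.

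No proteasome gene passed the test. At an adjusted p under 0.05, the DESeq2 results per the authors' deposited table had 0 of 47 members higher in Dot1l KO, where 5.34% of all genes tested were higher, and 0 lower, where 1.25% were lower. At an unadjusted p under 0.05 there was 1 member higher, the immunoproteasome subunit Psmb9, against 10.6% of all genes, and 1 lower, the activator subunit Psme2, against 5.55%. The smallest adjusted p among the members was 0.120. Of the 47 values as deposited 42 lay below 0, and 33 did once each was set against the median of genes of like mean count (20 bins). The deposited values had a median of -0.26, quartiles of -0.46 and -0.15 and extremes of -0.93 and 0.81. Over all genes the median was -0.02, and 51.4% of the values lay below 0.

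The precision of these values bounds what could have gone unseen. The SE of a member ran from 0.21 to 0.54, with a median of 0.36. For 27 members the 95% interval of the log2 fold change lay wholly between -1 and 1, so that a 2-fold difference in either direction lies outside it. For 18 members the interval reached a 2-fold lower level, and for 2, Psmd1 and Psmb9, a 2-fold higher one. A p that misses the threshold does not show that these genes were alike in both genotypes.

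**Figure D1:**
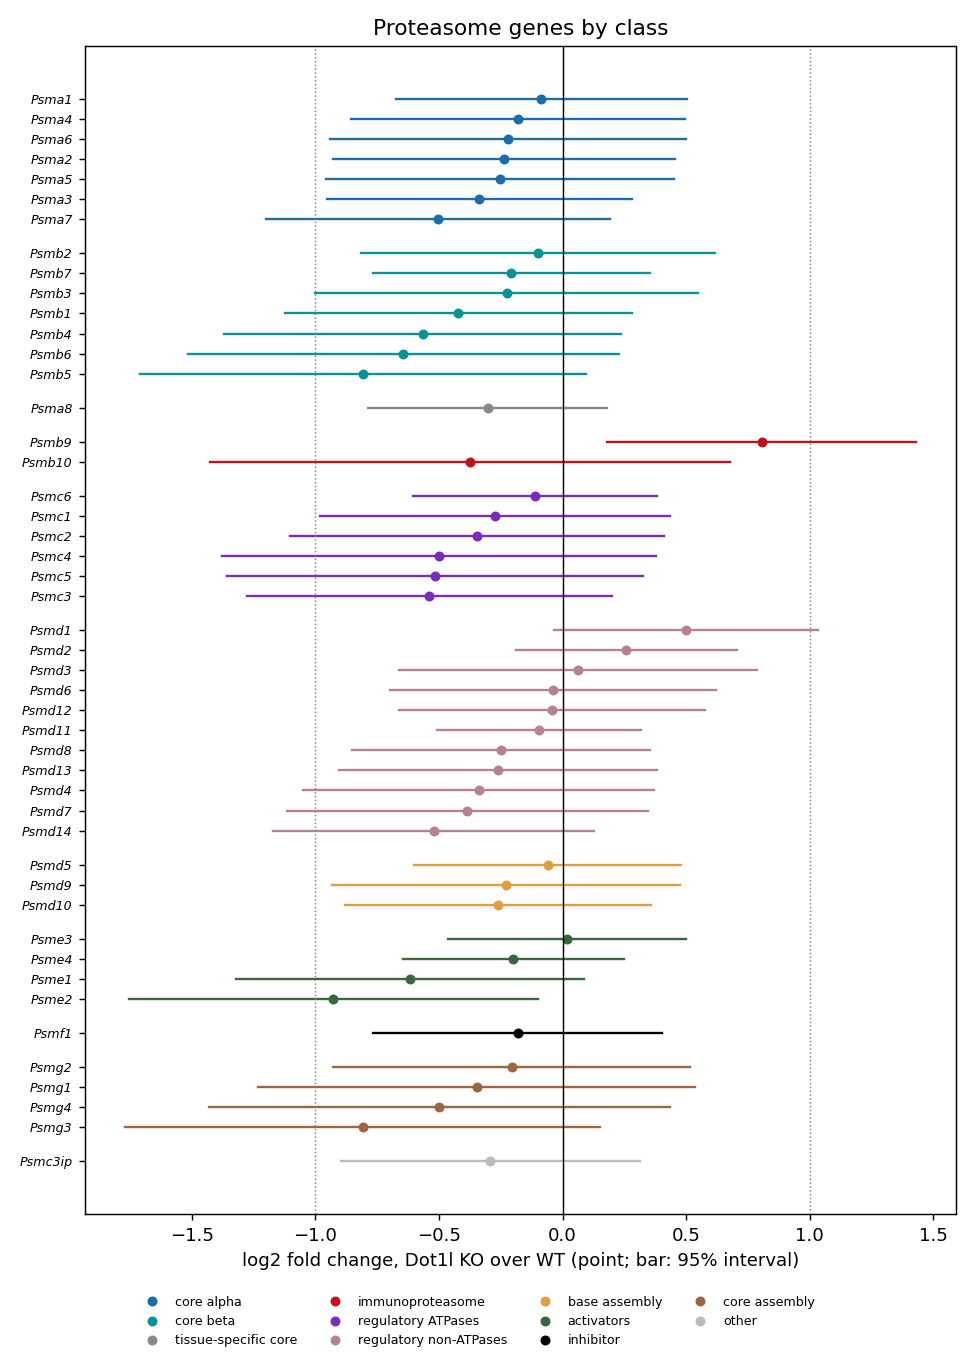
Log2 fold change of each of the 47 proteasome genes, Dot1l KO over WT (horizontal axis), with 1 row per gene grouped by class; points are the deposited values, bars their 95% intervals, and dotted lines mark -1 and 1. Of the 47 bars 45 cross 0; that of Psmb9 lies above it and that of Psme2 below it.

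As sequence context, RefSeq promoter windows (GRCm38.p6, from 250 bases before to 50 after the start site) were found for 39 of the 47 members. Below are the stretches of these windows, before the start site and free of annotated exons, for the 2 catalytic core genes with the lowest values, Psmb5 (chr14:54618023-54618245, minus strand) and Psmb6 (chr11:70525107-70525356, plus strand), and for the member with the lowest value of all, Psme2 (chr14:55591114-55591351, minus strand). Each reads 5′ to 3′ on its gene's strand; capitals mark the letters TGACNNNGC, the core of the antioxidant response element, on either strand.
Psmb5: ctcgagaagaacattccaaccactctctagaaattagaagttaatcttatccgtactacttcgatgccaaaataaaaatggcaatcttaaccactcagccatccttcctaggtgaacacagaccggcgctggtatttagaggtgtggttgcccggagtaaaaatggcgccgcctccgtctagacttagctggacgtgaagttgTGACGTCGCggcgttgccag
Psmb6: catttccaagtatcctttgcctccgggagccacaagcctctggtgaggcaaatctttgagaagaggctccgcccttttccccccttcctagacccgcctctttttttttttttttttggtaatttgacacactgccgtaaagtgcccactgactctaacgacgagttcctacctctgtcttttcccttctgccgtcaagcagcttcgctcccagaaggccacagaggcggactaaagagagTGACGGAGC
Psme2: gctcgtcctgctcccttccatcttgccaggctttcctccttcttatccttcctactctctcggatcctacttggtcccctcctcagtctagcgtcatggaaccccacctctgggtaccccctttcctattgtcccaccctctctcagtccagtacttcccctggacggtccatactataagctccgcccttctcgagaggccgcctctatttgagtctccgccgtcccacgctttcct
Psmb5 and Psmb6 hold 1 match each, close to the start site, and the Psme2 window holds none of the 4 motifs searched.

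TGACNNNGC occurred in the windows of 6 of the 39 members, or 15.4%, namely Psmb5, Psmb6, Psmc6, Psmd12, Psmd9 and Psme4, against 12.5% of all 27025 promoters of the same length and 14.6% of the 12885 that belong to genes of the table. The CCAAT box (letters CCAAT) was in 14 of 39, or 35.9%, against 37.9% and 38.5%. Of 2 motifs of interferon signalling, TTCNNNGAA, the palindrome of interferon-gamma activated sites, was in 2 of 39, or 5.13%, against 8.47% and 6.67%, and GAAANNGAA, of the kind bound by IRF factors, in 6 of 39, or 15.4%, against 8.57% and 6.78%. The 6 with GAAANNGAA were Psmb3, Psmb4, Psmd4, Psmd9, Psme1 and Psmg4, and the 2 with TTCNNNGAA were Psmd2 and Psmg1. The windows of Psmb9, Psmb10 and Psme2 held neither. Both strands were searched, and the motifs may overlap. Members with TGACNNNGC had a median log2 fold change of -0.21 and those without it -0.26. In the same order the medians were -0.27 and -0.25 for CCAAT, -0.04 and -0.26 for TTCNNNGAA and -0.42 and -0.25 for GAAANNGAA; these differences were not tested. A match is a description of letters, not a bound site.

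All 14 deposited values of the core alpha and constitutive beta subunits lay below 0, or 5 of 7 and 6 of 7 when centred by mean count (Psma1, Psma4 and Psmb2 then lay above), and none passed the test. The 7 alpha genes, which form the outer rings and the gate, spanned -0.50 to -0.09 with a median of -0.24. Per the authors' deposited table Psma7 was lowest at -0.50 ± 0.35 (SE), adjusted p = 0.541, and Psma1 highest at -0.09 ± 0.30, adjusted p = 0.942. Psma2 had the largest mean of the alpha genes, 10753 normalized counts, and Psma1 the smallest, 7410. The intervals of all 7 alpha genes overlapped and held 0.

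The 7 constitutive beta genes were spread more widely, from -0.81 to -0.10 with a median of -0.42. Psmb5 (chromosome 14, 54614119 to 54618022), the chymotrypsin-like subunit, was lowest. Its group means, as implied by the overall mean and the fold change, were 6716 normalized counts in WT and 3835 in Dot1l KO, and the authors' deposited table has -0.81 ± 0.46 with adjusted p = 0.392. Psmb6 (chromosome 11, 70525367 to 70527858), the caspase-like subunit, had implied means of 13416 in WT and 8578 in Dot1l KO, with -0.65 ± 0.44 and adjusted p = 0.525 per the authors' deposited table. The trypsin-like subunit Psmb7 had -0.21 ± 0.29 and adjusted p = 0.813 per the authors' deposited table. Of the structural beta genes, the authors' deposited table has Psmb4 at -0.57 ± 0.41, Psmb1 at -0.42 ± 0.36, Psmb3 at -0.23 ± 0.40 and Psmb2 at -0.10 ± 0.37. The intervals of all 7 overlapped and held 0.

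Of the immunoproteasome genes, Psmb9 and Psmb10 could be described; Psmb8 was not analysed here. They lay on opposite sides of 0. Psmb9 (chromosome 17, 34181987 to 34187764), which takes the place of Psmb6, was the highest of all 47 members and also the least abundant, with a mean of 150.4 normalized counts. Its implied means were 109.5 in WT and 191.3 in Dot1l KO, a ratio of 1.75 with a 95% interval of 1.13 to 2.69, and the authors' deposited table gives 0.81 ± 0.32 with p = 0.0114 before and 0.120 after adjustment. Centred by mean count, the value of Psmb9 was 0.63. Psmb10 (chromosome 8, 105935735 to 105938444), which takes the place of Psmb7, had 2342 in WT and 1805 in Dot1l KO by the same reckoning, with -0.38 ± 0.54 and adjusted p = 0.823 per the authors' deposited table; its SE was the largest of the 47.

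Both inducible genes had lower levels than their constitutive counterparts, and the gap was much wider for Psmb9 than for Psmb10. Per kb of transcript length, Psmb9 had an implied level of 81.0 normalized counts in WT and 141.5 in Dot1l KO, where Psmb6 had 16813 and 10749. The values of Psmb9 and Psmb6 thus differed in sign, and their 95% intervals, 0.18 to 1.43 and -1.52 to 0.23, overlapped only narrowly. Centred by mean count, the 2 values lay closer together, at 0.63 and -0.45. The difference was not tested, since the errors of 2 genes measured in the same libraries are not independent. Psmb10 had 1786 per kb in WT and 1377 in Dot1l KO, and Psmb7 5617 and 4865. Psmb10 and Psmb7 lay on the same side of 0. In both genotypes the constitutive member of each pair was the more abundant.

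**Figure D2:**
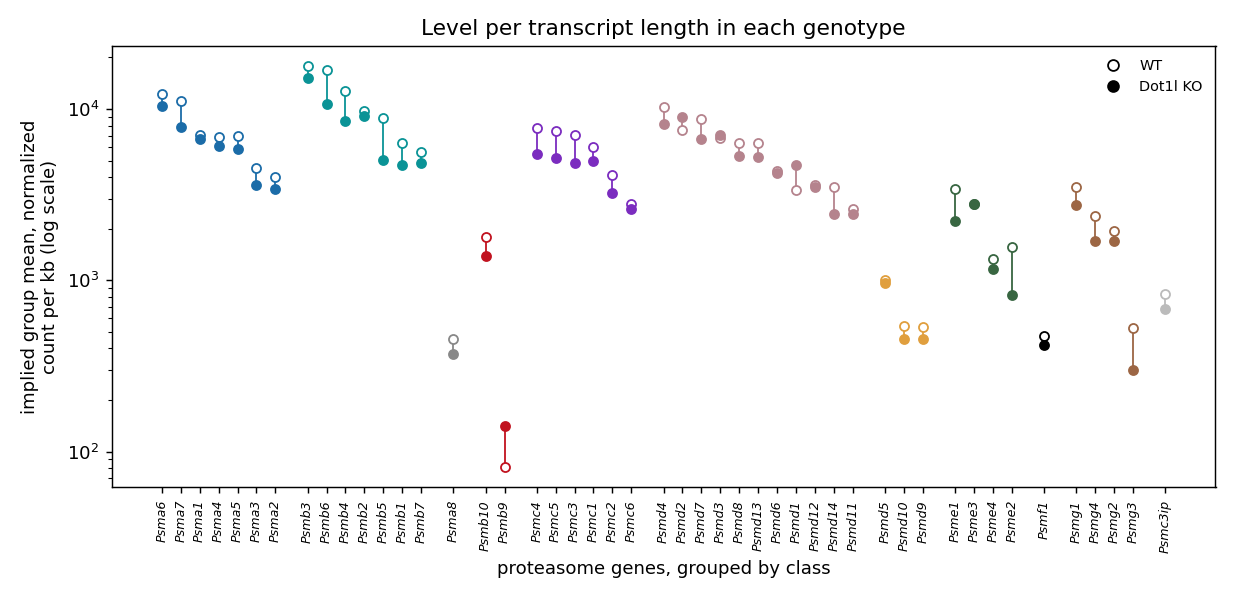
Implied mean level of each proteasome gene in WT (open circles) and Dot1l KO (filled circles), in normalized counts per kb of transcript length on a log axis, genes grouped by class; lines join the 2 genotypes of a gene and are no error bars. Psmb9 stands lowest, at 81.0 in WT and 141.5 in Dot1l KO, and Psmb3 highest, at 17830 and 15255.

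The tissue-specific core subunit Psma8, an alpha subunit of germ cells, was detected with a mean of 559.1 normalized counts. Per the authors' deposited table it had -0.30 ± 0.25 with adjusted p = 0.623. The thymus subunit Psmb11 was not analysed here. Per kb, the implied WT level of Psma8 was 454.9, against 3997 for the lowest of the other alpha genes, Psma2.

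Among the regulatory ATPases, which form the ring that unfolds substrates, all 6 values lay below 0 (5 when centred by mean count, Psmc6 then lying above) and none passed. They ran from -0.54 to -0.11 with a median of -0.42. The authors' deposited table has Psmc3 lowest at -0.54 ± 0.38, adjusted p = 0.535, and Psmc6 highest at -0.11 ± 0.25, adjusted p = 0.901. Psmc3 was also the most abundant of the 6, at a mean of 9743, and Psmc6 the least, at 6021. Psmc5, Psmc4, Psmc2 and Psmc1 lay between them at -0.52, -0.50, -0.35 and -0.27 per the authors' deposited table.

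The 11 non-ATPase subunits had values on both sides of 0, 3 above and 8 below (5 below when centred by mean count), with a median of -0.10. The 3 above 0 were Psmd1 and Psmd2, the large scaffold subunits at the base of the regulatory particle, and the lid subunit Psmd3. Psmd1 (chromosome 1, 86064387 to 86139151) had implied means of 10423 in WT and 14736 in Dot1l KO, with 0.50 ± 0.27 and adjusted p = 0.360 per the authors' deposited table. For Psmd2 (chromosome 16, 20651652 to 20663414), the most abundant of all members at 24512, the authors' deposited table gives 0.26 ± 0.23 with adjusted p = 0.661. These 2 scaffolds had the highest values of the 14 core and 17 regulatory subunits, yet the intervals of both held 0.

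At the other end stood the deubiquitinating subunit Psmd14, also the least abundant of the class at 4575, with -0.52 ± 0.33 and adjusted p = 0.470 per the authors' deposited table. Its partner in the lid, Psmd7, had -0.38 ± 0.37 and the ubiquitin receptor Psmd4 -0.34 ± 0.36 per the authors' deposited table. The other lid subunits lay between: per the authors' deposited table Psmd13 had -0.26, Psmd8 -0.25, Psmd11 -0.10, Psmd12 -0.04 and Psmd6 -0.04. Psmd11 had the smallest error of the 47, 0.21, and an interval of -0.51 to 0.32. All 11 intervals held 0, and the difference between the extremes Psmd1 and Psmd14 was not tested.

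None of the 4 genes of the alternative caps passed, and differences among them were not tested. Psme1 and Psme2 encode the interferon-inducible PA28 cap of the cytoplasm and lie side by side on chromosome 14, at 55578123 to 55581529 and 55587441 to 55591113. Psme2 had implied means of 1368 in WT and 719.5 in Dot1l KO, a ratio of 0.526 with a 95% interval of 0.296 to 0.933, and the authors' deposited table gives -0.93 ± 0.42 with p = 0.0282 before and 0.216 after adjustment. Psme1 had 2426 and 1582, with -0.62 ± 0.36 and adjusted p = 0.408 per the authors' deposited table. Psme3, the nuclear relative, had 0.02 ± 0.25 with adjusted p = 0.987 and Psme4, the large activator PA200, -0.20 ± 0.23 with adjusted p = 0.763, per the authors' deposited table. Psmf1, a proteasome inhibitor in vitro, stood at -0.18 ± 0.30 with adjusted p = 0.853 per the authors' deposited table. Psme2b was not analysed here. Thus the 3 interferon-inducible members other than Psmb9, namely Psmb10, Psme1 and Psme2, lay below 0 while Psmb9 lay above it.

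The 4 assembly chaperones of the core lay below 0 (3 when centred by mean count, Psmg2 then lying above), with a median of -0.42. Psmg3 (chromosome 5, 139823592 to 139826885), which with Psmg4 helps to build the alpha ring, had implied means of 423.5 in WT and 241.8 in Dot1l KO and was the rarest of the 4; the authors' deposited table has -0.81 ± 0.49 with adjusted p = 0.439. Per the authors' deposited table Psmg4 had -0.50 ± 0.48, Psmg1 -0.35 ± 0.45 and Psmg2 -0.21 ± 0.37, with adjusted p of 0.696, 0.799 and 0.869. The chaperones of the regulatory base were nearer 0, with Psmd10 at -0.26 ± 0.32, Psmd9 at -0.23 ± 0.36 and Psmd5 at -0.06 ± 0.28 per the authors' deposited table, adjusted p of 0.779, 0.846 and 0.955. None of these 7 chaperone genes passed. The exons of Psmd9 share 25.5% of their bases with other genes on the opposite strand, the largest such share of the 47, and for the strand setting of the counting nothing is given in the sources used here.

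Psmc3ip fits the naming rule but encodes no proteasome subunit; its product, Hop2, works with Mnd1 in meiotic recombination. It had -0.29 ± 0.31 with adjusted p = 0.735 per the authors' deposited table. Of 8 tested partners in recombination, 0 passed in either direction, with a median of -0.13; the 2 with the smallest p were Hsf2bp at -0.59 ± 0.30, adjusted p = 0.305, and Mnd1 at -0.65 ± 0.35, adjusted p = 0.348, per the authors' deposited table. At an unadjusted p under 0.05, DESeq2 had 0 of these 8 higher and 1 lower. Of all genes, 5.34% were higher and 1.25% lower at the adjusted threshold, and 10.6% and 5.55% at the unadjusted one.

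The members were abundant genes with short transcripts, and the table as a whole has a trend with both properties. Their median mean count was 7432, against 278.3 over all genes, and their median transcript length 1358 bases, against 2291. Among the 1918 genes whose mean count reached 4000, 74.5% of the fold changes lay below 0 and the median was -0.19; for the 34 members among them it was -0.24. When the abundant genes with an annotated length were divided into 5 equal groups by transcript length, the median log2 fold change was -0.44 in the shortest group, -0.28, -0.14 and -0.10 in the next ones and -0.01 in the longest.

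By the same groups the members' medians did not climb steadily. The 16 members in the shortest of these groups, up to 1472 bases, had a median of -0.26, against -0.44 for all 384 genes of the group. The 10 members of the next group had -0.34 against -0.28, and the 6 of the middle group -0.04 against -0.14. The next group held only Psmd5, at -0.06 against -0.10, and the longest only Psme4, at -0.20 against -0.01. Over the 47 members the Spearman correlation of length and log2 fold change was 0.52, and over all 19562 genes with a length 0.16. Among genes with a mean count of 4000 or more it was 0.47 for the 34 members and 0.48 for all 1917; the values behind each correlation share libraries and are not independent. Of the 23 members shorter than the members' median length, 22 lay below 0, with a median of -0.35. Of the 24 others 20 lay below 0, with a median of -0.23. Psme2 with 878.5 bases and Psmb5 with 760.5 were at the low end of the members' range. Psmb3 and Psmb2, with 766 and 859, lay nearer 0. The 1 shorter member above 0 was Psmb9, with 1352 bases. Psmd1 and Psmd2, with 3112 and 2961 bases, lay above 0, and the longest, Psme4 with 6491 and Psmd5 with 4397, below it. The part that length or abundance has in the members' values was not tested.

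**Figure D3:**
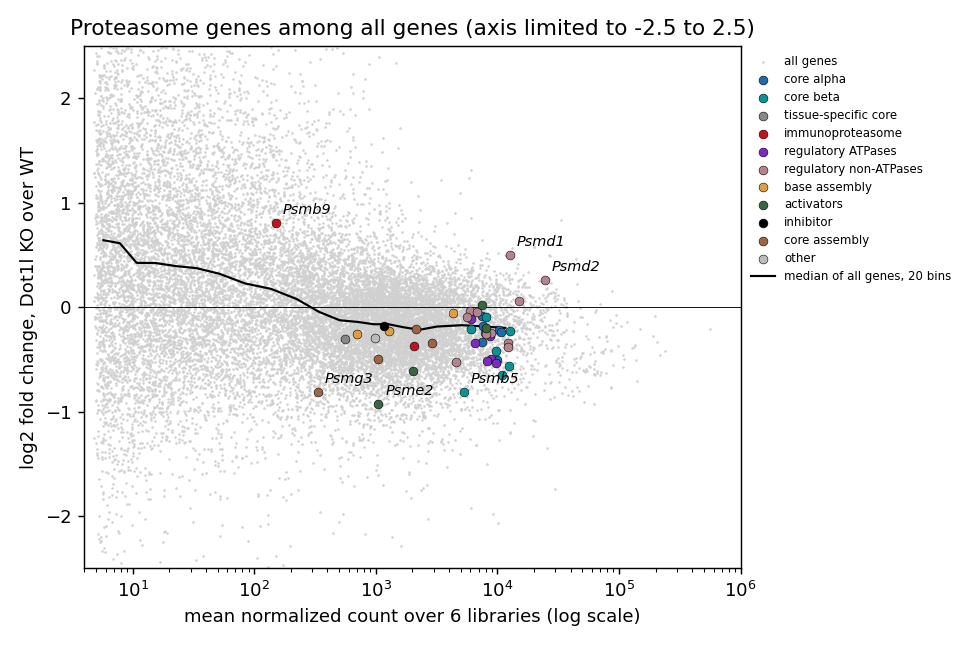
Log2 fold change, Dot1l KO over WT, against the mean normalized count (log axis) for all genes (grey) and the 47 proteasome genes (coloured by class); the line joins the medians of 20 equal bins of all genes. Most members sit at the abundant end, where the line lies below 0, and Psmb9 stands apart at 150.4 counts and 0.81.

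**Figure D4:**
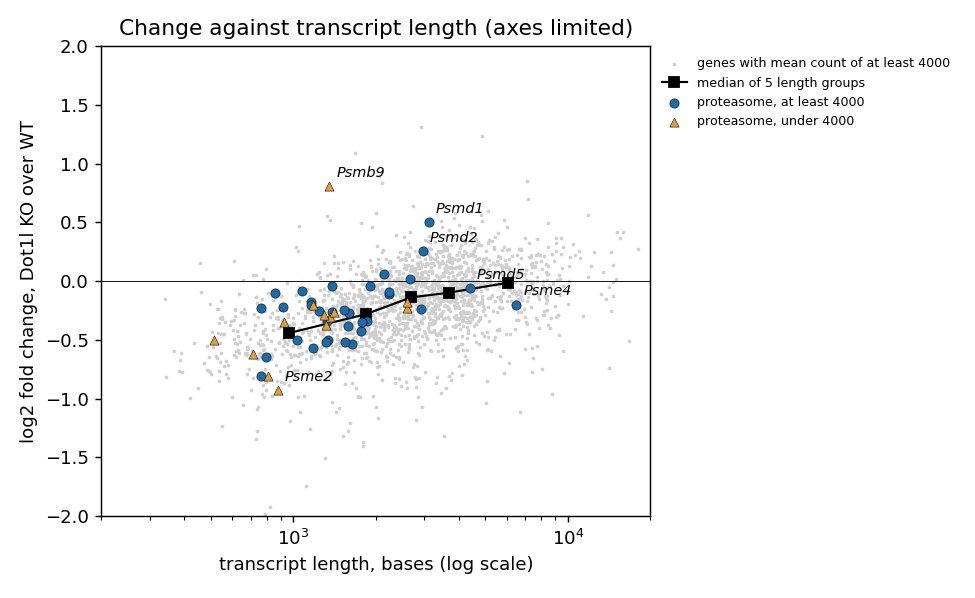
Log2 fold change, Dot1l KO over WT, against transcript length (log axis) for genes whose mean count reached 4000 (grey), the 34 proteasome genes at or above that count (circles) and the 13 below it (triangles); squares are the medians of 5 equal length groups of the grey points. The squares, which are medians, climb from -0.44 to -0.01. The circles, which are single genes, run from -0.81 to 0.50. The members' extremes, -0.93 and 0.81, are triangles.

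Further lists of the pathway were read in the same way. Of 17 tested genes for further proteasome components, assembly factors and ubiquitin shuttles, 0 passed in either direction at a median of -0.03. Of these 17 values 8 lay above 0 and 9 below. The smallest p-values there were those of Zfand5, a proteasome-binding activator, at -0.53 ± 0.23 with adjusted p = 0.184, and of the shuttle Rad23b at 0.38 ± 0.25 with unadjusted p = 0.131, per the authors' deposited table. At an unadjusted p under 0.05, DESeq2 had 0 of the 17 higher and 1 lower, against 10.6% and 5.55% of all genes. At the adjusted threshold, 5.34% of all genes were higher and 1.25% lower. The core assembly factor Pomp and Adrm1, a ubiquitin receptor of the regulatory particle, had -0.37 ± 0.41 and -0.51 ± 0.41 per the authors' deposited table; these 2 were chosen after their values were seen.

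Of 17 regulators of proteasome transcription, 0 passed at the adjusted threshold in DESeq2, against 5.34% of all genes higher and 1.25% lower. At the unadjusted threshold there were 0, against 10.6% and 5.55%. The median of the 17 was -0.17. Nfe2l1, which drives the compensatory response, stood at 0.11 ± 0.23 with adjusted p = 0.890 per the authors' deposited table. The smallest p-values belonged to its relative Nfe2l2, at -0.45 ± 0.24 with adjusted p = 0.331, and to their dimer partner Mafg, at -0.52 ± 0.31 with adjusted p = 0.421, per the authors' deposited table. Of 10 genes for ubiquitin, its activating enzymes and common conjugating enzymes, 0 passed and 0 had an unadjusted p under 0.05 in DESeq2. These counts stand against the same shares of all genes, and the median of the 10 was -0.20. The ubiquitin fusion gene Rps27a had -0.82 ± 0.45, adjusted p = 0.355, per the authors' deposited table.

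The one list around the proteasome with members that passed was MHC class I antigen processing, which uses the peptides that the immunoproteasome cuts. Of its 13 tested genes 2 rose and 0 fell, against the 5.34% and 1.25% of all genes, and the list's median was 0.12. Tapbpl (chromosome 6, 125223933 to 125231860), the peptide editor TAPBPR, rose by 1.61 ± 0.31 on the log2 scale with adjusted p = 1.33e-05 per the authors' deposited table, from an implied 104.2 normalized counts in WT to 318.9 in Dot1l KO. Nlrc5 (chromosome 8, 94434356 to 94527272), the transactivator of class I genes, rose by 1.58 ± 0.40 with adjusted p = 0.00331 per the authors' deposited table, from 40.4 to 120.6. Psmb9 lies beside Tap1, a peptide transporter subunit, with divergent start sites 226 bases apart. Tap1 stood at -0.57 ± 0.56 with adjusted p = 0.709 per the authors' deposited table, on the other side of 0 from Psmb9. Exons of Tap1 cover 5.79% of the exon bases of Psmb9 on the opposite strand.

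Upstream interferon genes did not pass. Of 14 tested receptors, kinases and factors such as Irf1, 0 rose and 0 fell in DESeq2, against 5.34% and 1.25% of all genes. None of the 14 had an unadjusted p under 0.05, against 10.6% of all genes higher and 5.55% lower. The median of the 14 was -0.20. The smallest p-values were those of the kinases Tyk2, at -0.46 ± 0.24 with adjusted p = 0.324, and Jak2, at 0.69 ± 0.39 with adjusted p = 0.389, per the authors' deposited table.

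Markers of other cells were set beside Psmb9, Tapbpl and Nlrc5. Of 8 blood cell markers 6 were tested and 0 passed, with 1 higher and 1 lower at an unadjusted p under 0.05 in DESeq2; Ptprc and Lyz2 were not analysed here. Of the 6 values 2 lay above 0 and 4 below. The summed implied level of the 6 was 4022 normalized counts in WT and 3141 in Dot1l KO, most of it Laptm5 and Cd68. The 1 higher was Itgam, a scarce gene with implied means of 7.44 in WT and 32.7 in Dot1l KO. The 1 lower was Cd68, with 980.8 and 568.4. Of 10 fibroblast markers 7 were tested, and 4 rose and 0 fell, against 5.34% and 1.25% of all genes. The 4 were Col1a1, Col1a2, Col3a1 and Thy1, by 1.25 to 4.03 on the log2 scale per the authors' deposited table. The 2 largest rises were those of scarce genes. Col1a2 had implied means of 4.73 normalized counts in WT and 77.6 in Dot1l KO, and Col3a1 2.01 and 30.2. Col1a1 had 151.2 and 401.3, and Thy1 435.1 and 1034. The other 3 markers tested lay below 0 without passing, Acta2 at -2.25 (adjusted p = 0.0926), Fn1 at -0.55 and Vim at -0.48 per the authors' deposited table. At an unadjusted p under 0.05 in DESeq2, 4 of the 7 were higher and 1 lower, against 10.6% and 5.55% of all genes. The summed implied level of the 7 was 48732 in WT and 34667 in Dot1l KO, most of it Fn1 and Vim, while Dcn, Lum and Postn were not analysed here. The part of such cells in the values of Psmb9, Tapbpl and Nlrc5 was not tested.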

How the data were processed

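RNA-seq of 6 samples, 3 Dot1l KO and 3 WT, was grouped by sample title. Reads were mapped to mm10 with HISAT2 2.1.0, summarised per gene with featureCounts 2.0.0 and compared with DESeq2 by the authors, per the submitters' processing notes; the DESeq2 version is not stated there. The deposited mean is a signal, the average over libraries of counts scaled by size factors, per the file headers. The deposited log2 fold change comes with its error, a Wald score, and a p-value before and after Benjamini-Hochberg adjustment, per the file headers. Strand, overlapping genes and reads with several positions, which matter for subunits with pseudogene copies, have settings not given in the sources used here.

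The planned edgeR fit needs counts per sample, so the authors' deposited test was used, at an adjusted p under 0.05. Computed here with Python 3.11.15, pandas 2.3.3 and scipy 1.17.1 were 95% intervals (normal approximation), group means implied by the overall mean and fold change under equal group sizes, and alternatives. Transcript length is the median over the protein-coding transcripts of the basic set of GENCODE M21, matched by symbol for 19562 genes. Adjustment and centring were tested on simulated data. The 7 genes without a p are left out of the counts that passed and their shares. They are not left out of medians, shares of values below 0, bins or correlations.

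Members and lists were chosen with earlier results of these data known. Named by rule were members that passed, all members of the immunoproteasome, cap, inhibitor and assembly classes, the extremes of other classes in fold change and abundance, and for each list the 2 smallest p-values and every gene that passed, with marker lists given by range and count; other named genes were chosen after their values were seen. A gene that the rule names in the ubiquitin list is not reported here. Copies of transposable elements at these genes were not analysed here.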

Additional observations from a re-analysis of the deposited data

How the results depend on the processing

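The counts of 0 proteasome genes higher and 0 lower were the same after centring on the median of all genes or within 20 bins of mean count. They were also the same with genes under a mean count of 50 left out. Centring within 20 bins of transcript length, an alternative chosen after seeing the data, gave 0 and 0 too. An adjusted p under 0.01, an added absolute log2 fold change of at least 1, Bonferroni adjustment and leaving out Psmc3ip could only return 0, since each narrows a count of 0. At an unadjusted p under 0.05 the counts were 1 and 1. The median of the members was -0.24, -0.06 and -0.17 after centring on all genes, on mean count and on length, and 42, 33 and 38 of the 47 values then lay below 0. Over the centrings and the filter on mean count, the adjusted p of Psmb9 ranged from 0.0507 to 0.354. The lower end came after centring on length, the alternative chosen after seeing the data. The upper end came after the planned centring on mean count, where its log2 fold change was 0.63. In the antigen processing list, 2 genes rose under the other settings and 1 with Bonferroni adjustment, Tapbpl.

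No paired analysis was possible because the deposited table has no column per sample, and for the same reason leaving out replicates, other normalizations and other count filters were not run.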

Other observations

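The genes of 3 of the 5 members with the lowest values, Psme2, Psmb5 and Psme1, lie within 976995 bases of each other on chromosome 14 (54614119 to 55591113). Of the 37 genes of the table within that stretch, these 3 included, 4 passed the test with higher and 0 with lower levels, against 32 and 9 of the 691 genes of the chromosome, and their median log2 fold change was -0.18, against 0.02 over the chromosome. This stretch was chosen after the members' values were seen, and it was not tested.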
